A study of Mus musculus with 4 samples.

Results

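Hub splice sites were junction ends that many circular RNAs (circRNAs) had in common. A back-splice junction joins a downstream donor to an upstream acceptor, so each circRNA has 2 ends. Ends were grouped by chromosome, strand and exact coordinate, separately for starts and ends, and a hub was an end used by 8 or more of the circRNAs listed. The circRNAs that ended at a hub and spanned at least 1 kb but under 100 kb numbered 1597 of 40909, or 3.90%, and carried 744277 of 4278181 junction reads, or 17.4%. The hubs numbered 215 among 52525 distinct ends, and 1 of them had no circRNA of this span. CircRNAs of any span at hubs numbered 1918, with 38 below 1 kb and 283 of 100 kb or more. The reads of a hub count them all, while the circRNAs ending at hubs, as named below, are the 1597. The hub was the start coordinate in 725 of the 1597, the end coordinate in 826 and both in 46. The rule counted circRNAs and did not use the reads in any library.

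Back-splicing joins a splice donor to an acceptor that lies upstream of it in the same transcript, and the product is a covalently closed RNA without a cap or a poly(A) tail. The same spliceosome carries out linear and back-splicing, and 1 acceptor or donor can be joined to different partners, a pattern known as alternative back-splicing. Base pairing between inverted repeats in the flanking introns and RNA-binding proteins are known to bring the ends together.

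The libraries were made from cultured articular chondrocytes, the cells of joint cartilage, taken from mice and used at low passage. The IL-1β group (2 libraries) received 10 ng/ml recombinant human interleukin-1β, a cytokine that drives inflammation and cartilage breakdown, for 24 h as a culture model of osteoarthritis. The control group (2 libraries) was labelled as chondrocytes without the cytokine in its source, although its protocol text is the same as that of the treated samples. Ribosomal RNA was removed and linear RNA digested with RNase R before strand-specific sequencing. Whether the 2 libraries within a group are from different cultures or mice is not stated in the labels, so p-values here measure only the spread between libraries, which may be technical.

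No hub itself lay inside a window of known sequence, but 8 circRNAs that end at hubs had their other end in a RefSeq window around an annotated transcript start (GRCm38.p6). The following sequences, read 5′ to 3′ on the strand of the circRNA, show what the ends look like at base level, and the capitals mark the AG directly before an acceptor end or the GT directly after a donor end. The first 3 belong to alternative acceptors of a single donor hub at chr19:4784724 (minus strand), close together near the annotated start of Rbm4, an RNA-binding splicing regulator.
circRNA.17125 acceptor, chr19:4794000-4794029 (−): acctcttcctggcctctcAGgtaattggcg
circRNA.17124 acceptor, chr19:4793912-4793941 (−): acggccaatccggtgggtAGgttcacccct
circRNA.17123 acceptor, chr19:4793890-4793919 (−): tcacccctctttctacccAGagtcactgct
circRNA.23879 acceptor, chr2:92221452-92221481 (+), partner of the Phf21a donor hub: acattttatgatctctacAGctgcagcaac
circRNA.25082 donor, chr3:79512311-79512340 (−), partner of the Fnip2 acceptor hub: gtacaaataaGTaagtgtggattttgcacc

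The acceptors near the Rbm4 start were not used alike. circRNA.17125 had 903 and 839 reads in the controls and 785 and 740 with IL-1β, 39.3% of all reads at its hub. circRNA.17124 had 18, 0, 2 and 18 reads in the same order, and circRNA.17123 had 18, 13, 0 and 0. Each of the 3 is preceded by AG, so the motif is common to the much-read acceptor and to the 2 that were hardly read. Over all circRNAs of the table, AG stood directly before 173 of 177 acceptor ends inside such windows (97.7%), against 7.68% of all window positions on the transcript strand. GT stood directly after 35 of 36 donor ends (97.2%), against 4.99% of positions. Only the strand of the circRNA was searched. Since the circRNA caller is not given, whether it kept junctions by these motifs is not known.

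Acceptors were hubs more often than donors. Of the 215 hubs, 135 were acceptors, or 0.527% of the 25624 acceptor ends, and 80 were donors, or 0.297% of the 26901 donor ends. Most ends were not shared at all, since 69.0% occurred in 1 circRNA. Hubs had a median of 8 circRNAs and at most 20. Just inside the threshold, the 115 ends with 8 circRNAs had a median of 1396 reads, and just outside it the 174 ends with 7 circRNAs had a median of 743.5. A hub had between 59 and 136547 reads over the 4 libraries with a median of 1622, and other ends had a median of 15. Hubs made up 9.95% of the 1437 ends with at least 1000 reads and 22.4% of the 210 ends with at least 5000, so the number of circRNAs found at an end and its reads moved together, and the part of read depth in the count of partners was not tested.

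**Figure D1:**
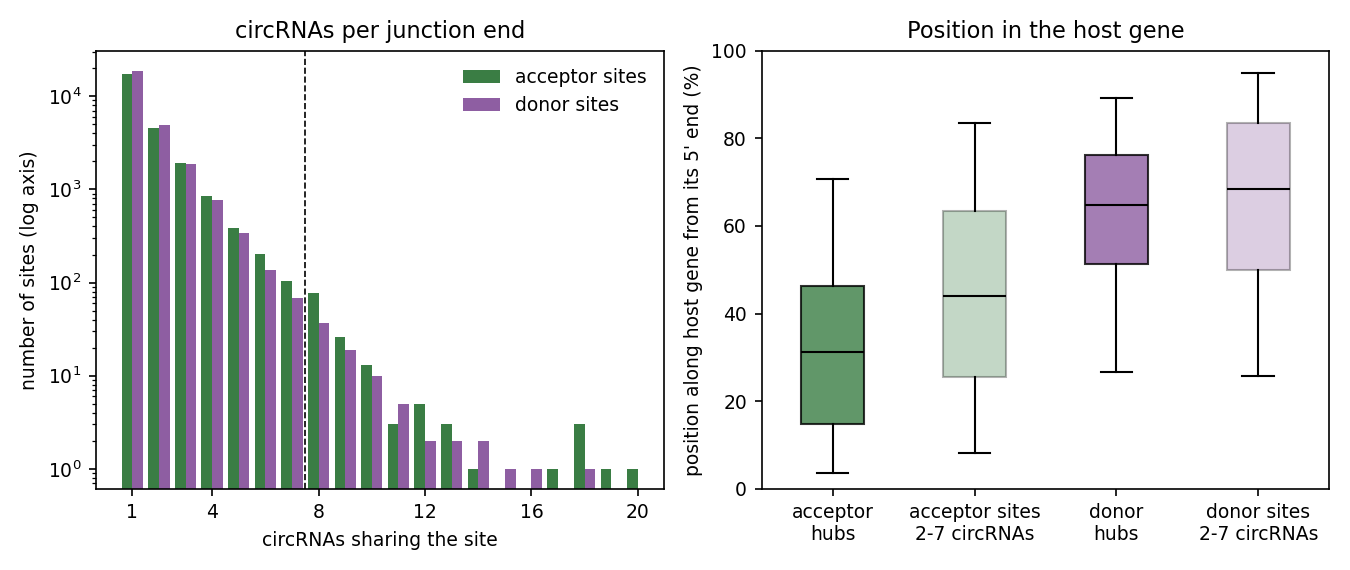
Left, number of junction ends (log axis) by the number of circRNAs that share the end, for acceptors (green) and donors (purple), with a dashed line at the hub threshold; the counts fall steeply and the largest hub has 20. Right, position along the host gene from its 5′ end in percent for hubs and for ends shared by 2 to 7 circRNAs (box, quartiles; line, median; whiskers, 5th to 95th percentile), where acceptor hubs have the lowest median, 31.1%.

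Within their genes, acceptor hubs lay nearer the 5′ end than less shared acceptors. A host gene could be given to 206 hubs, in 145 genes, of which 142 are protein-coding. The median acceptor hub lay 31.1% along its host (quartiles 14.8 and 46.2, 131 hubs), and the median acceptor shared by 2 to 7 circRNAs lay at 44.04% (quartiles 25.6 and 63.5, 7912 ends). Donor hubs lay at 64.8% (75 hubs) and the less shared donors at 68.4% (7882 ends). Hosts of hubs were long genes, with a median of 159967 bp against 41482 bp for all 6939 circRNA hosts. These are descriptions of positions without a test. An acceptor can be joined only to donors downstream of it, and a donor only to acceptors upstream. The hub rule counts partners, so by itself it favours acceptors towards the 5′ end and donors towards the 3′ end. The hubs and the less shared ends were not matched for host length or for the number of possible partners. How much of the positions, here and in the counts that follow, comes from the rule was not tested. Of the acceptor hubs with a host, 32 of 131 were the first acceptor of the gene to appear in any circRNA and 76 were among the first 3. Of the donor hubs, 2 of 75 were the last donor of the gene and 19 were among the last 3.

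Arhgap10, a GTPase-activating protein, held 11 hubs, more than any other gene, with 6 acceptors followed by 5 donors along the transcript. Its 81 circRNAs ending at hubs carried 95.8% of the junction reads of the gene. Ltbp1, which binds latent TGF-β in the extracellular matrix, had 5 hubs but only 38.8% of its junction reads in such circRNAs. Foxp1, a forkhead transcription factor, had 4 hubs with 11.96%. A gene could therefore have several hubs and still draw most of its junction reads from other ends.

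Hubs also occurred in long non-coding RNAs. Pvt1, the transcript beside Myc, had 3 hubs, Lncpint had 2, and Mir100hg, which hosts a cluster that includes miR-100 and let-7, had 1. The Mir100hg donor hub at chr9:41528200 (plus strand) joined 18 acceptors, had 900, 1029, 502 and 565 reads (control 1, control 2, IL-1β 1, IL-1β 2, the order used from here on) and was led by circRNA.39284 with 602, 751, 364 and 371. Its share of the hub was 66.9%, 73.0%, 72.5% and 65.7%, so the shares of the 2 groups overlapped.

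The hub with the most circRNAs was an acceptor of Cacna1c, the pore-forming subunit of an L-type calcium channel, at chr6:119057515 (minus strand). It joined 20 donors at distances of 4914 to 344258 bp, and had 941, 1110, 774 and 954 reads. The nearest donor gave circRNA.31478, with 587, 629, 486 and 711 reads and shares of 62.4%, 56.7%, 62.8% and 74.5%. The shares of the groups did not overlap, but control 1 and IL-1β 1 differed by less than 1 percentage point. Of the 20 donors, 5 were read in all 4 libraries and between 10 and 12 in any 1 library.

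The acceptor hub of Tasp1, a protease that cleaves the MLL histone methyltransferase, was of another kind. It joined 18 donors, 13 of them in all 4 libraries. Its leading circRNA, circRNA.21452, held 31.9%, 28.3%, 23.7% and 22.5% of the reads. The next, circRNA.21445, held 19.8%, 22.7%, 24.7% and 23.9%, and circRNA.21458 from the nearest donor 15.5%, 16.5%, 21.6% and 23.3%. In both controls circRNA.21452 led, and in both IL-1β libraries circRNA.21445 did. The partner profile as a whole did not pass the test of partner use described further on (edgeR, unadjusted p = 0.649).

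The acceptor hub of Slc10a7, a member of the bile acid transporter family that is linked to skeletal dysplasia, also joined 18 donors and spread its reads. circRNA.37729 from the nearest donor, 15572 bp away, had 306, 439, 447 and 427 reads. circRNA.37745 from a donor 191362 bp away had 388, 525, 333 and 368, and circRNA.37734, 63171 bp away, had 287, 279, 280 and 402. A donor at more than 10 times the distance was thus read about as often as the nearest. A hub at chr8:73214312 (minus strand), to which no host gene could be given, behaved in the same way: its leading circRNA.37553 spanned 166018 bp and held 30.2%, 41.9%, 27.7% and 35.1% of the reads.

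**Figure D2:**
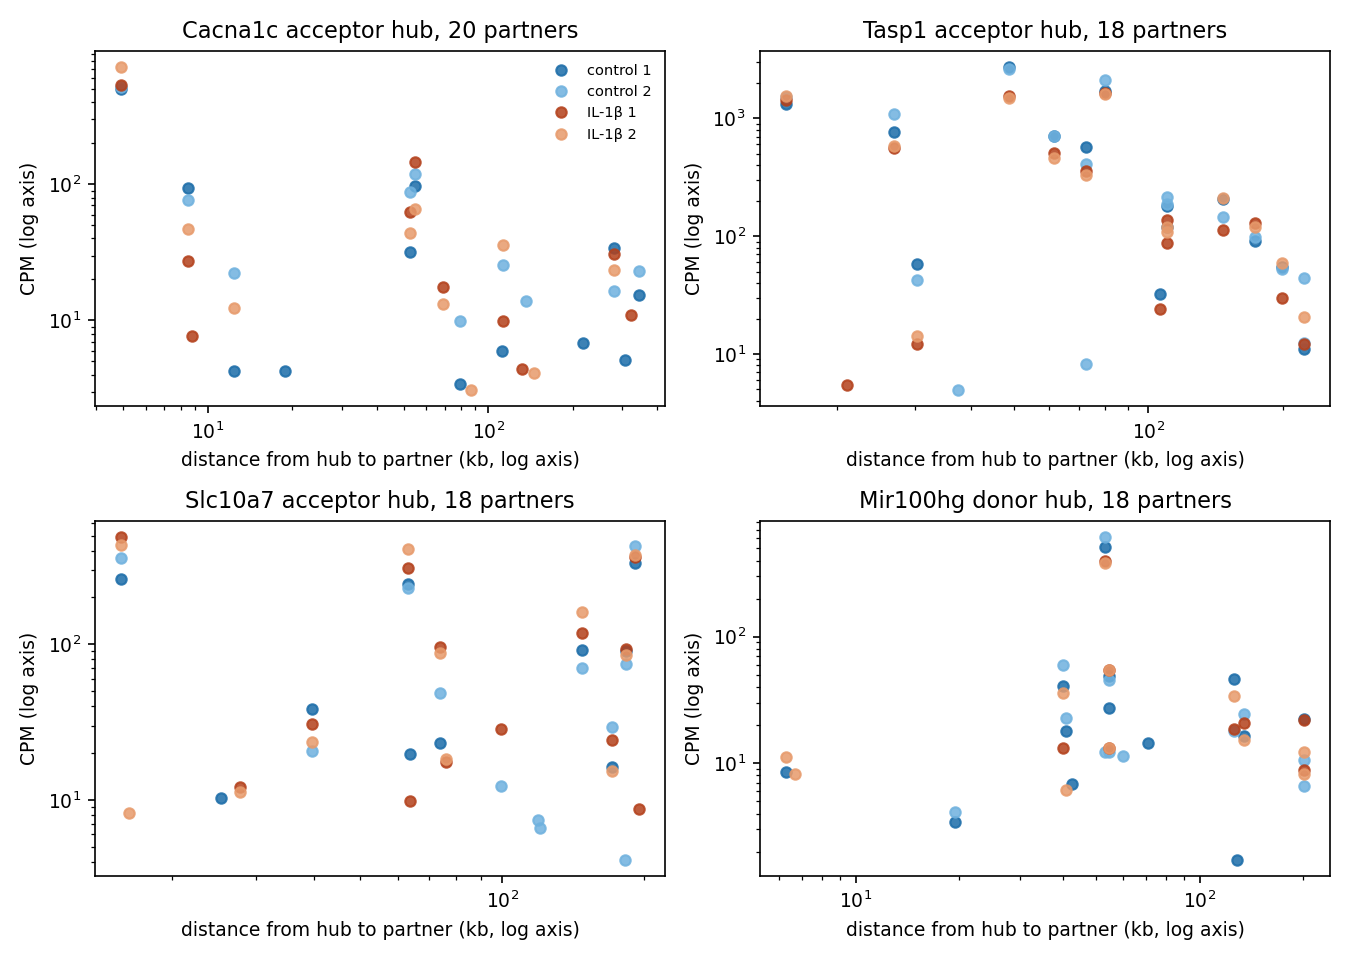
CPM (log axis) of every partner against its distance from the hub in kb (log axis) at 4 of the hubs with the most circRNAs, 1 point per partner and library, with libraries in which a partner had no read left out. The Cacna1c acceptor is led by its nearest donor, and the Slc10a7 acceptor has points of similar height from 15572 to 191362 bp.

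In most hubs 1 partner took more than 50% of the reads. The leading partner's share of the pooled reads had a median of 55.5% (quartiles 39.3 and 73.8, range 17.4 to 98.6), and in single libraries the median share of the same partner was 55.2%, 56.7%, 55.5% and 53.5%. The pooled share was above 50% in 124 hubs, above 90% in 19 and below 30% in 14. The effective number of partners, the number of equally used partners that would give the same concentration of reads (inverse Simpson index), had a median of 2.57. The nearest partner led in 36 hubs (16.7%) and 1 of the 3 nearest in 116 (54.0%), and the farthest led in 3. Many of the partners were thinly read: in a single library 46, 29, 25 and 30 hubs had 8 or more partners, and 14 had them in every library. The median hub had 3 partners read in all 4 libraries.

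**Figure D3:**
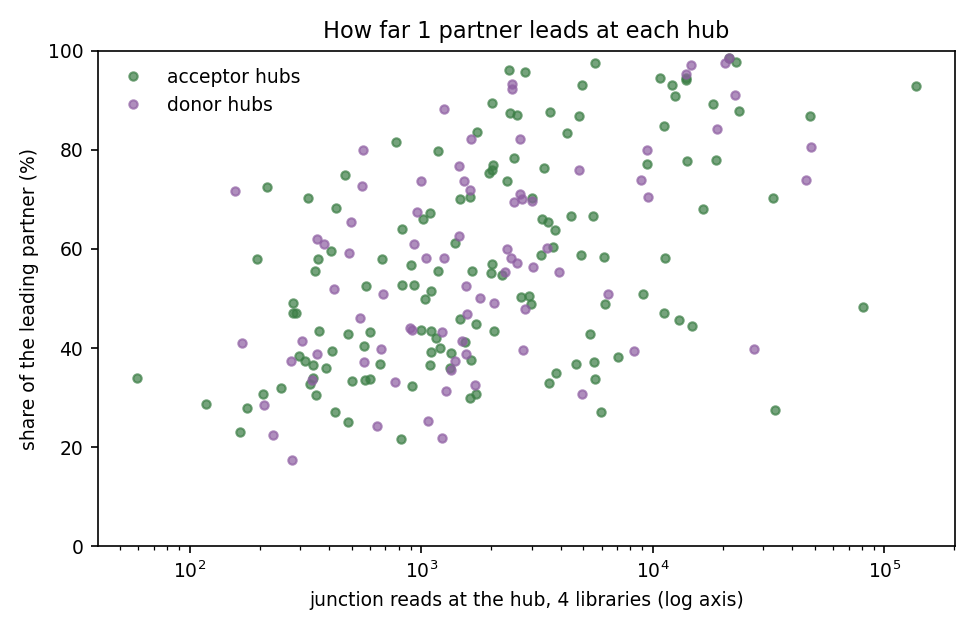
Share of a hub's reads held by its leading partner (percent) against the junction reads of the hub summed over 4 libraries (log axis), 1 point per hub, acceptors in green and donors in purple. The shares run from 17.4% to 98.6%, and both hub types are spread over the range.

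Strongly led hubs included the acceptor of Nfix, a nuclear factor I transcription factor, which had more reads than any other hub. It had 30800, 52710, 25510 and 27527 reads, and its nearest partner, circRNA.37871 with a span of 531 bp, had 30219, 44465, 25100 and 27080. Its share was 98.1%, 84.4%, 98.4% and 98.4%, with control 2 the only low library. There, circRNA.37869, whose donor lies 4 bases from that of circRNA.37871, had 7458 reads, and it had 0 in the other 3 libraries. The donor hub of Samd4, an RNA-binding translational repressor, was led by circRNA.8980 (span 518 bp) with 97.5%, 96.7%, 97.0% and 97.1%, and its groups overlapped.

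In 46 circRNAs both ends were hubs. They carried 24.1% of the reads of the circRNAs ending at hubs and had a median of 237.5 reads, against 34 for all circRNAs ending at hubs and 13 for all circRNAs of the table. They came from 15 host genes, and 18 of them from Arhgap10. circRNA.37633 of Arhgap10 (chr8:77310731-77365160) had 10648, 10876, 8796 and 8639 reads, and circRNA.37651 (chr8:77344640-77365160) had 8719, 8518, 8078 and 8417. Both used the acceptor at chr8:77365160, where they held 48.3% and 41.8% of the pooled reads, and each led the donor hub at its other end. After library scaling, circRNA.37633 differed by a log2 change of 0.04 ± 0.16 (SE) and circRNA.37651 by 0.28 ± 0.16 with IL-1β (edgeR quasi-likelihood test, unadjusted p = 0.815 and 0.138).

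Further circRNAs that joined 2 hubs had 1 dominant route. circRNA.23869 of Phf21a, part of a histone demethylase complex, had 7125, 5118, 4164 and 4529 reads and held 98.6% of the reads at its acceptor and 98.5% at its donor. circRNA.5892 of Dtnb, a dystrobrevin, had 5439, 5808, 3966 and 5421 reads and held 87.8% of its acceptor hub. circRNA.39029 of Bbs9, a component of the BBSome at the cilium, had 4898, 3668, 2349 and 2263 reads, with both IL-1β libraries below both controls and a log2 change of −0.55 ± 0.23 (edgeR, unadjusted p = 0.0492).

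Single libraries decided some hubs. The acceptor hub of Gigyf2, a translational repressor, had 156 reads in control 1 and 9666, 5801 and 7260 in the others, because circRNA.20203 had 0, 9526, 5691 and 7137. In control 1 a count of 0 allows up to 2.57 CPM (reads scaled to a library of 1000000), against 7816 CPM in control 2, so the controls differed from each other more than from the IL-1β libraries. circRNA.32152 of Snd1, a nuclease of the RNA-induced silencing complex, joined 2 hubs and had 0, 2100, 0 and 0 reads. It alone made up 70.2% of the pooled reads at its acceptor and 60.2% at its donor. The donor hub at chr17:39845357 (plus strand, no host gene) and the 2 donor hubs of Clec2d, a C-type lectin, had no partner that was read in all 4 libraries. At the chr17 hub, the leading circRNA.13386 had 0, 165, 110 and 71 reads, and at the larger Clec2d hub the leading circRNA.31690 had 0, 24, 24 and 0. Whether such gaps arose in the cells, the libraries or the circRNA calling was not tested.

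Libraries of the same group differed in partner use about as much as libraries of different groups. The leader was the same in all 4 libraries at 133 hubs (61.9%). It was the same in 163 hubs between the 2 controls, in 173 between the 2 IL-1β libraries, and in 153 to 165 between a control and an IL-1β library. The share of a hub's reads that would have to move to turn 1 library's partner profile into another's had a median of 16.2% between the controls, 14.8% between the IL-1β libraries and 15.8% to 16.8% across the groups. The circRNAs ending at hubs held 17.4% and 17.6% of the reads in the controls and 17.3% in each IL-1β library. At 12 hubs (5.58%), 1 partner led in both controls and another in both IL-1β libraries. This was so at 3.01% of the 8574 ends with 2 or more circRNAs and reads in every library. With at least 1000 reads it was so at 9 of 143 hubs (6.29%), against 1.62% of such ends. Ends in general have fewer partners to choose from than hubs have, and the difference was not tested. The 12 were hubs of Tasp1, Slc10a7, Atp9b, Dennd1a, Vwa8, Sec31a, Fam172a, Eefsec, Ipmk, Rere and Spag9 and the hub at chr19:4784724, and the list was drawn up after the values were seen. For Ipmk, a kinase of inositol phosphates, circRNA.1502 held 66.1%, 46.9%, 25.7% and 23.3% of the reads, and the groups did not overlap.

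The comparison of partner use asked whether the partners of a hub changed relative to each other with IL-1β, whatever the hub's total. It was run with edgeR's quasi-likelihood test of differential usage on circRNAs with 20 or more reads in total, for all 5915 ends with 2 or more such partners. No hub of the 212 tested passed an adjusted p of 0.05, against 0.0338% of all ends tested, and 10 hubs (4.72%) had an unadjusted p below 0.05, against 5.31% of all ends. The share among hubs was thus close to the background. Without control 1 the test called 3 hubs, the Nfix acceptor and both hubs of circRNA.32152 in Snd1, which hold the circRNAs read in control 2 alone, and without control 2 it called the Gigyf2 acceptor. Over all ends the first setting called 8 (0.169%) and the second 5 (0.103%). The number of hubs with an unadjusted p below 0.05 was 29 without control 1 (13.9%, against 13.2% of all ends) and 20 without control 2 (9.48%, against 7.28%). It was 6 without IL-1β 1 (2.84%, against 3.82%) and 11 without IL-1β 2 (5.19%, against 4.99%).

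The lowest p for partner use was at the acceptor hub of Rere, a corepressor of the atrophin family, at chr4:150431523 (plus strand). circRNA.26995 held 4.76%, 14.0%, 41.9% and 34.5% of the hub's reads. circRNA.26996 held 25.7%, 24.4%, 3.88% and 4.87%, on 54, 61, 5 and 11 reads. Neither overlapped between groups, while the adjusted p of the hub was 0.743 (edgeR, Benjamini-Hochberg adjustment, unadjusted p = 0.00716). The effective number of partners there was 5.71, 5.97, 3.03 and 4.42.

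At the acceptor hub of Insig2, which retains the SREBP activation complex in the endoplasmic reticulum, there were only 143, 84, 58 and 44 reads. circRNA.17712 from the nearest donor held 25.2%, 0%, 75.9% and 63.6%. circRNA.17711 had 51 and 17 reads in the controls and 0 in both IL-1β libraries, and circRNA.17709 had 17 and 43 and then 0 and 0. Against a floor of 3 reads per library, their group mean CPM was at least 9.05-fold and 7.83-fold lower with IL-1β. These bounds are for means and not for each library, and the floor covers counting error only. The unadjusted p of the hub was 0.0107 (edgeR), with an adjusted p of 0.743 as for the other 9 hubs listed here.

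At the Fam172a donor hub a pair of acceptors held most reads. circRNA.7906 had 414, 180, 77 and 61 reads, or 82.0%, 55.4%, 36.2% and 28.6% of the hub. circRNA.7902 had 82, 130, 91 and 116 reads, or 16.2%, 40.0%, 42.7% and 54.5%. The groups did not overlap in either share, but control 2 lay nearer to IL-1β 1 than to control 1 (edgeR, unadjusted p = 0.0112).

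The donor hub of Cers6, a ceramide synthase, was led by circRNA.23507 with 96.7%, 95.2%, 90.3% and 92.0%, a small shift without overlap. Its circRNA.23505 had 0 and 0 reads in the controls and 15 and 49 with IL-1β, or 16.5 and 50.2 CPM. The group mean was at least 13.2-fold higher by the same floor, and IL-1β 1 alone lay well below that mean. Further hubs with an unadjusted p below 0.05 were acceptors of Mbd5, Dock1, Rps6kc1, Bnc2, Atxn1 and Kif1b. At Mbd5, a methyl-CpG-binding domain protein, circRNA.23232 had 0, 0, 14 and 35 reads. At Bnc2, a zinc-finger protein, circRNA.28021 held 64.0%, 75.8%, 33.3% and 48.6%, and circRNA.28034 had 180 reads in IL-1β 1 and 0 in the others. At Rps6kc1 the leading circRNA.19016 held 79.1%, 80.2%, 76.4% and 74.5%, and the groups did not overlap.

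**Figure D4:**
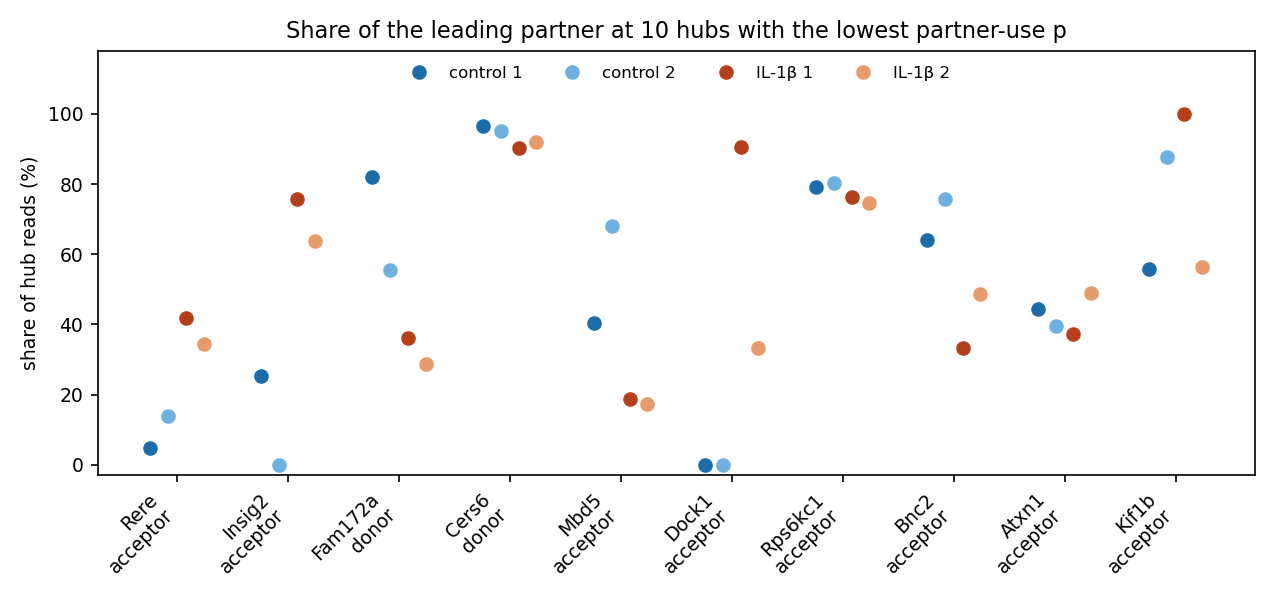
Share of the hub's reads held by the leading partner (percent) in each library at the 10 hubs with the lowest partner-use p, with controls in blue and IL-1β in red and orange. At Fam172a the controls hold 82.0% and 55.4% and the IL-1β libraries 36.2% and 28.6%, while at Atxn1 and Kif1b the groups overlap.

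Reads summed over all partners were lower with IL-1β at 122 hubs and higher at 93, with a median log2 change of −0.07, against −0.06 over all 23034 ends tested. By edgeR's quasi-likelihood test no adjusted p was below 0.05 at the 215 hubs, against 0.00868% of all ends. An unadjusted p below 0.05 was found at 16 hubs (7.44%), against 3.68% of all ends and 9.81% of ends with at least 1000 reads. All 16 were among the 143 hubs with at least 1000 reads, of which they were 11.2%. Of the 16, 13 were lower with IL-1β, where 1.95% of all ends fell below that p, and 3 were higher, where 1.73% did. Both IL-1β libraries lay below both controls at 54 hubs (25.1%, against 17.5% of all ends) and above both at 31 (14.4%, against 16.6%). Without control 1, 34 hubs had such a p (15.8%, against 8.04% of all ends), and without control 2, 25 did (11.6%, against 4.50%). Without IL-1β 1 there were 7 (3.26%, against 2.70%), and without IL-1β 2 only 2 (0.930%, against 3.65%), so whether hubs stood above or below the other ends turned with the library left out. Without control 2 the Gigyf2 acceptor passed the adjusted threshold, 1 of 2 ends called in all. With 2 libraries a group, an exact permutation test of a single hub cannot go below p = 0.333.

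The donor hub of Asph, an aspartyl β-hydroxylase of the endoplasmic reticulum, at chr4:9508627 (minus strand) had the lowest p. It had 6308, 6528, 2953 and 3061 reads, which gave 5378 ± 32 CPM (SD, n = 2) in the controls and 3188 ± 76 CPM (n = 2) with IL-1β. The libraries of a group lay close together and the groups were far apart. The log2 change was −0.79 ± 0.16 (SE, edgeR, unadjusted p = 0.00167, adjusted p = 0.905), and DESeq2 called this hub alone among hubs at an adjusted p of 0.05 (0.465%, against 0.525% of all ends). Its leading circRNA.28180 had 5181, 5755, 2550 and 2392 reads, and its share of the hub, 82.1%, 88.2%, 86.4% and 78.1%, overlapped between groups. The hub's total and its main circRNA were lower together.

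The other hubs lowest in p and lower with IL-1β belonged to Setbp1, Tasp1, Braf, Tenm4 and Fnip2. At the Setbp1 acceptor, from a SET-binding protein gene, the hub joined 19 donors and had 13245, 18319, 8349 and 7743 reads, a log2 change of −0.65 ± 0.20. Most of these reads were of circRNA.15856 from the nearest donor, with a span of 629 bp. It held 83.3%, 88.2%, 87.6% and 88.4% of the hub. At the donor of Braf, a kinase of the MAP kinase pathway, there were 401, 462, 180 and 212 reads and a log2 change of −0.83 ± 0.27. At the acceptor of Tenm4, a teneurin cell-surface protein, there were 473, 687, 275 and 215 reads and a log2 change of −0.93 ± 0.31. In these 3 hubs both IL-1β libraries lay below both controls. The second Tasp1 hub, a donor, had 958, 782, 379 and 462 reads, and the acceptor of Fnip2, a folliculin-interacting protein, had 660, 652, 303 and 348, again without overlap. Each had an adjusted p of 0.905 (edgeR).

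The 3 hubs higher with IL-1β at an unadjusted p below 0.05 were donors of Cers6 and Pvt1 and an acceptor of Rnf217. Cers6 had 538, 418, 555 and 942 reads, or 461, 343, 609 and 964 CPM, and a log2 change of 0.95 ± 0.30 (edgeR, unadjusted p = 0.0169). Its groups did not overlap in CPM, although IL-1β 2 was well above IL-1β 1. The Pvt1 donor at chr15:62107465 (plus strand) had 627, 510, 588 and 953 reads and a log2 change of 0.74 ± 0.28. It shared its leading circRNA.10328, which spans 317 bp and had 467, 430, 477 and 827 reads, with the Pvt1 acceptor hub at chr15:62107148, which had 756, 744, 698 and 1136 reads and joined 17 donors. At Rnf217, a ubiquitin ligase, there were 3436, 2656, 3253 and 3559 reads and a log2 change of 0.47 ± 0.20 (edgeR, unadjusted p = 0.0479). The acceptor of Foxp1 with 295, 252, 341 and 320 reads and the donor of Armh3 with 63, 87, 91 and 139 followed, at unadjusted p above 0.05.

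**Figure D5:**
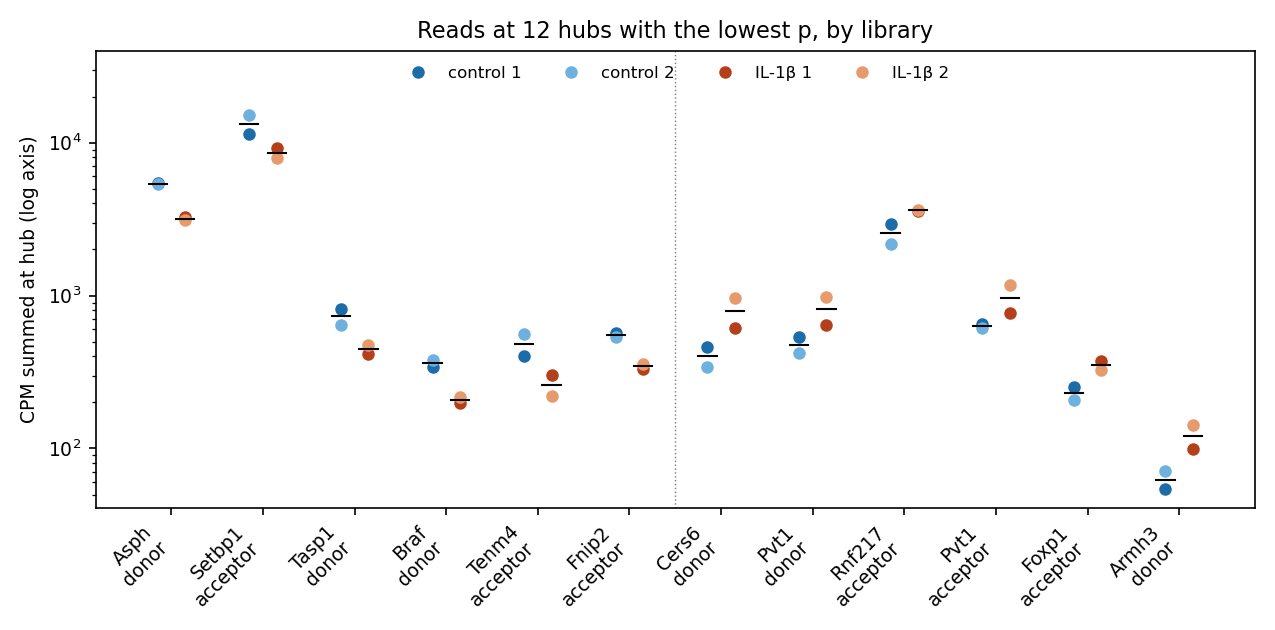
CPM summed at a hub (log axis) in each library for the 6 hubs lower (left of the dotted line) and the 6 higher with IL-1β that had the lowest p, with a black bar at each group mean (n = 2). The 2 groups do not overlap at any of the 12 hubs, which were chosen by this p, and no adjusted p is below 0.905.

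Of the 1597 circRNAs, 961 reached 20 reads in total and were tested singly, and 636 had fewer. By edgeR's quasi-likelihood test no adjusted p was below 0.05, against 0.0196% of all 15333 circRNAs tested, and DESeq2 called 9 (0.937%, against 0.691% of all). An unadjusted p below 0.05 was found for 53 (5.52%), against 3.44% of all, with 28 lower (2.91%, against 1.62% of all) and 25 higher (2.60%, against 1.83%). It was found for 70 without control 1 (8.14%, against 7.96% of all), 66 without control 2 (7.67%, against 4.58%), 23 without IL-1β 1 (2.55%, against 2.78%) and 37 without IL-1β 2 (4.15%, against 3.71%). Without control 2 the adjusted p of circRNA.20203 of Gigyf2 passed. The lowest p belonged to circRNA.15854 of Setbp1, with 1051, 1078, 443 and 404 reads and a log2 change of −0.98 ± 0.23 (edgeR, unadjusted p = 0.00434, adjusted p = 0.886). circRNA.15854 joins the Setbp1 acceptor hub to a donor 11786 bp away and held 7.94%, 5.88%, 5.31% and 5.22% of it.

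Among those higher with IL-1β, circRNA.31058 of Mthfd2l, a mitochondrial folate enzyme, had 9, 21, 75 and 80 reads and a log2 change of 2.71 ± 0.63 (edgeR, unadjusted p = 0.00465). circRNA.19013 of Rps6kc1 had 0, 0, 39 and 27 reads, with a group mean CPM at least 14.0-fold higher by the floor of 3 reads per library. circRNA.37665 of Arhgap10 had 62, 85, 121 and 136 reads and a log2 change of 1.15 ± 0.37, and circRNA.30832 of Apbb2 had 158, 100, 209 and 251. In each of these the IL-1β libraries lay above the controls. Among the lower ones, circRNA.21452 of Tasp1 had 3189, 3185, 1420 and 1465 reads (−0.80 ± 0.19 on the log2 scale), circRNA.32675 of Braf had 354, 430, 151 and 173, circRNA.1502 of Ipmk had 207, 128, 46 and 53, and circRNA.8461 of Pcca, a subunit of propionyl-CoA carboxylase, had 63, 117, 17 and 23. Both IL-1β libraries were below both controls in all 4. The higher and the lower circRNAs were chosen by their low p, which favours groups without overlap. How often this occurs over all circRNAs was not counted. DESeq2 called circRNA.31058, circRNA.19013, circRNA.23505 and circRNA.808 higher. It called circRNA.15854, circRNA.28180, circRNA.21452, circRNA.32675 and circRNA.32152 lower, the last of them read in control 2 alone.

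Reading across libraries, 579 of the circRNAs ending at hubs (36.3%) were read in all 4 libraries and 585 (36.6%) in 1 only, against 16.8% and 58.6% of all circRNAs in the table. Both IL-1β libraries and neither control had 43 of them (2.69%, against 2.45% of all circRNAs), and both controls and neither IL-1β library 44 (2.76%, against 2.72%). Each pattern was about as frequent as in the whole table.

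Hub hosts were also set against lists of genes by function. Of 27 cartilage matrix and chondrocyte regulator genes, 12 had a circRNA in the table and 3 hosted hubs, all of them transcription factors (Foxp1, Nfix and Sox5). None of their 6 hubs passed the test. The Sox5 acceptor had 284, 141, 131 and 223 reads, with overlapping groups. The chondrocyte-defining genes Sox9, Acan, Col2a1 and Comp had no circRNA in the table, so the labelled cell type could not be checked on them. Of 40 genes of the NF-κB and IL-1 response, 26 had a circRNA and 1 hosted a hub. All circRNAs of these genes together, at hubs or not, summed to 3740 and 2778 CPM in the controls and 6123 and 6337 CPM with IL-1β, without overlap. The hub was in Traf3, an adaptor of NF-κB signalling, whose acceptor had 385, 424, 239 and 44 reads, 339 ± 13 CPM (SD, n = 2) against 154 ± 154 CPM (n = 2). Both IL-1β libraries were below the controls, but the low mean rests on IL-1β 2 (log2 change −1.17 ± 0.70, edgeR, unadjusted p = 0.136).

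Of 40 actin and small GTPase regulators, 38 had a circRNA and 6 hosted 16 hubs, 11 of them in Arhgap10. By sum 9 were lower and 7 higher with IL-1β, the median log2 change was −0.07, as over all hubs, and none had an unadjusted p below 0.05. Of 40 chromatin regulators, 39 had a circRNA and 6 hosted 8 hubs, and the Setbp1 acceptor alone had an unadjusted p below 0.05. The acceptor of Kat6b, a histone acetyltransferase, had 3597, 5139, 2462 and 2733 reads (log2 change −0.44 ± 0.22). Of 26 fibroblast matrix genes, 19 had a circRNA and Ltbp1 alone hosted hubs, 4 of its 5 lower and 1 higher with IL-1β by sum. None of the 5 had an unadjusted edgeR p below 0.05. Of 26 splicing and circRNA biogenesis factors, 22 had a circRNA and Srpk2, a kinase of SR splicing proteins, alone hosted a hub, with 5382, 5387, 3703 and 3711 reads and a log2 change of −0.22 ± 0.16. Markers of other cells hosted no hub: 1 of 12 macrophage, 2 of 10 endothelial and 2 of 10 smooth muscle and pericyte markers had any circRNA, and the macrophage markers summed to between 0 and 12.8 CPM in a library. Endothelial markers summed to 99.3 and 115 CPM in the controls and 153 and 117 with IL-1β, and smooth muscle markers to 35.1, 30.4, 28.5 and 12.3 CPM.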

How the data were processed

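The authors deposited back-splice junction reads as whole-number counts per circRNA and library, with SRPBM, a depth-scaled signal, beside them, per the file headers. Per the submitters' processing notes mm10 and Bowtie2 were used. Which circRNA caller was run is not given in the sources used here. SRPBM, the signal deposited by the authors, was not used further. Coordinates are those deposited. Numbers missing from the circRNA numbering, which runs to 41588 for 40909 entries, were not analysed here.

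The libraries held 1198010 and 1203855 junction reads (control 1 and 2) and 895774 and 980542 (IL-1β 1 and 2). The 4 single-library tables hold the same values as the series table. CPM are reads divided by the library total times its TMM factor, scaled to 1000000. Floors (3 reads per library, 2.46 to 3.29 CPM) cover counting error only, while SE and SD also hold the spread between libraries.

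Counts of circRNAs, and of reads summed at an end, were tested with edgeR 4.0.16 (R 4.3.3; quasi-likelihood test, TMM, at least 20 reads over the libraries, no covariate), and partner use with edgeR's differential usage test, all fitted on the whole table with Benjamini-Hochberg adjustment at 0.05. SE is the log2 change over the square root of F. DESeq2 1.42.0, RLE factors, other read minimums, joined ends within 5 nt, a replicate block and leaving out each library were alternatives. The scripts were tested on simulated data with planted changes. Single circRNAs were changed 4-fold, and an end counted as changed if such a circRNA used it. At the spread of these data, the tests recovered 4.6% of the changed circRNAs. Of the ends counted as changed they recovered 0% in partner use and 1.3% in summed reads. The summed reads of an end changed by less than 4-fold where unchanged partners shared it. At a lower spread set for the simulation the values were 84%, 66.8% and 46.6%. The lack of calls here therefore does not show that hubs were unchanged. Python 3.11.15 and pandas 2.3.3 were used otherwise.

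A host is the only coding gene (RefSeq, GRCm38.p6; failing that the only other gene) holding both ends of at least 50% of a hub's circRNAs. Exon or intron is not stated, since no exon table was used.

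Hubs named are the 10 with the most circRNAs, the 10 with the most reads, the 10 with the lowest partner-use p, the 6 in each direction with the lowest p of summed reads, and up to 4 hosts of each list. One hub that this rule names is not reported here. CircRNAs named are the 6 in each direction with the lowest p, the leading partners of named hubs and those read in few libraries, which were chosen after their values were seen. The members, the 9 gene lists (231 genes, none in 2 lists) and the tests were chosen with earlier results of these data known.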

Additional observations from a re-analysis of the deposited data

How the results depend on the processing

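The number of hubs was 55 with 10 or more circRNAs per end and 726 with 6 or more, and the circRNAs ending at them numbered 502 and 4350, against 215 and 1597. The median leading share was 57.7% over partners of 1 to under 100 kb alone, 50.2% for hubs of 10 or more, and 53.7% to 55.9% with each library left out. Against 0 circRNAs called by edgeR, 4 were called at a minimum of 2 reads (0.251%, against 0.149% of all), 9 by DESeq2 and 0 to 1 without each library, the 1 being circRNA.20203 of Gigyf2 without control 2. Against 0 hubs in partner use, 1 was called at 2 reads (0.465%, against 0.123% of ends) and 0 to 3 without each library. Against 0 hubs by summed reads, 2 were called at 2 reads (0.930%, against 0.128%), 1 by DESeq2 and 0 to 1 without each library. RLE factors, a minimum of 100 reads and joined ends gave 0 calls in all 3 tests.

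The replicate block called 7 circRNAs (0.728%, against 0.398% of all), 5 hubs in partner use (2.36%, against 0.440% of ends) and 3 hubs by summed reads (1.40%, against 0.321%). Whether libraries with the same number were made together is not stated in the labels. Their deviations from the group means correlated at −0.0286 over 3100 circRNAs. With 2 libraries a group this value cannot decide whether the block stands for a pairing. Among the circRNAs and the hubs by summed reads named for their p, no direction reversed. They were chosen by low p and their groups did not overlap, so leaving out a library could hardly reverse them. By DESeq2, 8 circRNA values and the Asph hub passed the threshold, and in partner use the Bnc2 hub did at 2 reads and with the block. Depth limits the thinly read partners, since 636 circRNAs ending at hubs had under 20 reads in all. Where 1 library is left out, its group's lone library is assumed to vary like the others.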
